A study of Mus musculus with 41 samples.

Results

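The comparison described here is that of injured mouse kidneys taken on day 7 with and without removal of the other kidney, in the second of 2 cohorts. Its members are 10 of the 41 samples of the series, chosen by their labels. They are the 4 titled as injury with nephrectomy (UIRI+Nx d7, library numbers 14 to 17) and the 6 titled as injury alone (UIRI d7, library numbers 19 to 24). Unilateral ischemia-reperfusion injury (UIRI) closes the blood supply of a single kidney and then reopens it, and nephrectomy (Nx) is the surgical removal of a kidney. All 10 titles carry WT, taken here to mean wild type, and no other genotype, transgene or drug is named for them. Sex, age, ischemia time, temperature and the day of nephrectomy are not stated in the labels of these 10 samples. The series' design text gives them for 4 groups of 6, which match the first cohort: males of 8 to 10 weeks, UIRI of the left kidney lasting 21 min with the body held at 34 °C, and Nx of the right kidney or a sham operation on day 3. Whether the UIRI d7 mice of the second cohort had a sham operation is not stated, so nephrectomy and surgery as such cannot be told apart here. The second cohort also holds 6 samples of UIRI alone on day 3 (UIRI d3), which are given beside the day 7 values, and it has no uninjured group. Total RNA came from cryosections of a pole of the kidney, and the 3′ ends of messenger RNA were sequenced and counted per gene.

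A mouse with a single injured kidney and a healthy partner keeps most of its filtration through the partner. After the partner is removed the injured kidney carries the whole load of salt, water, acid and waste. The nephron divides this work by segment: the proximal tubule takes back most of the filtrate and makes glucose and ammonia, the thick ascending limb and distal tubule recover salt and divalent ions, and the collecting duct sets water and sodium output. Proximal tubule cells are the main target of ischemia. They either recover or remain in an inflamed state, often called failed repair, that attracts leukocytes.

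The 4 UIRI+Nx d7 libraries held 8593244 to 26290199 counts and the 6 UIRI d7 libraries 5387275 to 33362940. Mitochondrial transcripts took 3.95% ± 1.0 of counts (SD, n = 4) with nephrectomy and 2.82% ± 0.398 (SD, n = 6) without (two-sided exact permutation test p = 0.0286, adjusted p = 0.0857 over 6 library measures). Hemoglobin transcripts took 0.00391% ± 0.00227 and 0.0113% ± 0.00425 (exact permutation p = 0.00952, adjusted p = 0.0571). Without UIRI d7 replicate 2 the adjusted p of both measures was 0.0476, and without UIRI d7 replicate 3 that of hemoglobin was 0.0476. Total counts, detected genes, ribosomal protein transcripts and the share of the 10 most abundant genes had adjusted p of 0.248 or more. The sample-sheet numbers in the column names form 2 runs of numbers, whose meaning the labels do not give. Numbers 1 to 10 hold replicates 1 and 2 of both groups and all 6 UIRI d3 libraries, and numbers 18 to 23 hold replicates 3 and 4 of UIRI+Nx d7 and 3 to 6 of UIRI d7. In the first run the mitochondrial share was 4.77% against 3.28%, and in the second 3.13% against 2.58%. No UIRI d3 library lies in the second run, so levels at UIRI d3 and over all of day 7 differ in run as well as in day, which cannot be told apart. Markers that define kidney tubules were abundant in every library. Umod of the thick ascending limb stood at 546 to 669 CPM with nephrectomy and 626 to 925 CPM without, and Slc34a1 of the proximal tubule at 1383 to 1975 and 1566 to 2863 CPM. Levels of single genes are given as CPM, the count scaled to a common library size with edgeR's factors. Summed levels of marker lists were scaled to total counts without these factors, so their scale differs from that of single genes.

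Of 15543 genes tested, 814 (5.24%) differed between UIRI+Nx d7 and UIRI d7 at an adjusted p under 0.05 in edgeR's quasi-likelihood test, and these are said to be called. Nephrectomy libraries had the higher level in 401 of them (2.58% of genes tested) and the lower in 413 (2.66%). Counts called in the gene lists below stand beside these shares, and no list was tested as a set. The difference was over 2-fold in 148 of the higher and 241 of the lower genes. In 553 of the called genes no nephrectomy library overlapped any library without it, and over all tested genes such separation occurred in 940 (6.05%), 471 with higher (3.03%) and 469 with lower values (3.02%). The median log2 fold change of all tested genes was 0.0046, and 2927 genes had an unadjusted p under 0.05. All 814 genes kept their sign wherever they could be fitted with a library left out, and 284 of them, 154 higher and 130 lower, kept their call in every such fit. UIRI+Nx d7 replicate 2 weighed most: without it 328 genes were called. Within the first run of sheet numbers all 812 called genes that could be fitted had the same sign and 162 were called, and within the second, all 789 and 16. Within-run log2 fold changes are given below for selected genes. The samples are labelled as separate replicates but not tied to individual animals, so p-values measure the spread between these samples.

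**Figure D1:**
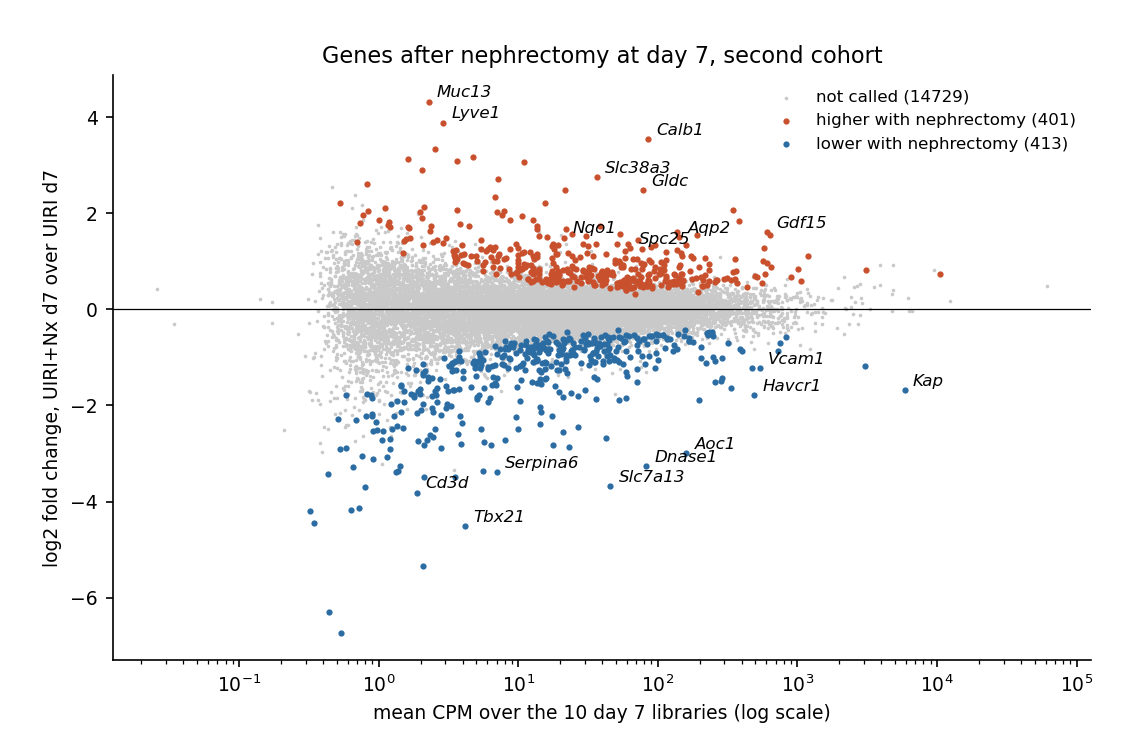
Log2 fold change of UIRI+Nx d7 over UIRI d7 (vertical axis) against the mean CPM of the 10 libraries (horizontal log axis), with 1 point per tested gene. The 401 genes called higher and the 413 called lower lie on both sides of the zero line over the whole range of levels, with Calb1, Lyve1 and Muc13 at the top and Slc7a13 and Tbx21 near the bottom.

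Several genes of the distal convoluted and connecting tubule, where calcium is recovered under vitamin D control, were higher after nephrectomy. Of 12 tested members of that list 5 rose and none fell, and their median log2 fold change was 0.73 beside 0.0046 for all genes. Calb1 (calbindin, the calcium-carrying protein of these segments; chromosome 4, 15881264 to 15908064 in GRCm38) stood at 291, 168, 196 and 98.8 CPM in UIRI+Nx d7 replicates 1 to 4 and at 11.8 to 31.6 CPM (median 13.7) in UIRI d7. All 4 nephrectomy values lay above all 6 others, and UIRI d7 replicate 6 was the highest of its group. The difference was 11.7-fold (log2 fold change 3.54, SE 0.28, edgeR adjusted p = 6.59e-07), with log2 fold changes of 3.98 in the first run and 3.10 in the second. S100g, a smaller calcium carrier encoded on chromosome X, 162961992 to 162964599, was at 559, 596, 509 and 1047 CPM against 114 to 267 CPM (median 182), again without overlap (log2 fold change 1.84, SE 0.22, edgeR adjusted p = 6.7e-05). Slc8a1, the sodium-calcium exchanger of the basolateral membrane, was at 4.21 ± 1.25 CPM (SD, n = 4) against 1.12 ± 0.865 CPM (SD, n = 6) (log2 fold change 1.74, SE 0.39, edgeR adjusted p = 0.0119), and its call was lost without UIRI+Nx d7 replicate 2 (edgeR adjusted p = 0.0509). Without that library 2 members of the list were called. Slc12a3, the thiazide-sensitive salt transporter, overlapped between groups, at 172, 85.9, 149 and 44.8 CPM against 50.5 to 99.2 CPM (median 66.9) (edgeR adjusted p = 0.145). Without UIRI+Nx d7 replicate 4, the lowest of its group, its adjusted p was 0.0188. Cyp27b1, the proximal tubule enzyme that makes active vitamin D, was at 19.7, 1.28, 7.84 and 1.87 CPM against 0.187 to 2.44 CPM (median 0.781). Replicates 1 and 3 lay above every UIRI d7 library while replicates 2 and 4 lay among them (log2 fold change 3.09, SE 0.72, edgeR adjusted p = 0.0164), and the call was lost with limma-voom and without UIRI+Nx d7 replicate 1 (log2 fold change 2.02, edgeR adjusted p = 0.123).

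Principal cells of the collecting duct take up water through aquaporin 2 and sodium through the epithelial sodium channel. Of 12 tested markers of these cells 5 rose and none fell (median log2 fold change 0.60), and all 12 had a positive value. Aqp2 (aquaporin 2; chromosome 15, 99579055 to 99584547) was at 244, 255, 209 and 220.5 CPM with nephrectomy and 46.8 to 135 CPM (median 71.6) without. The 4 nephrectomy libraries were close together and above all others (log2 fold change 1.5, SE 0.29, edgeR adjusted p = 0.00401), by 2.13 in the first run and 1.16 in the second. At UIRI d3 Aqp2 had stood at 276 ± 106 CPM (SD, n = 6), so that the UIRI d7 group was the lowest of the 3. Scnn1a, the alpha subunit of the sodium channel, was at 49.2 ± 13.7 CPM (SD, n = 4) against 19.9 ± 7.76 CPM (SD, n = 6) without overlap (log2 fold change 1.33, SE 0.23, edgeR adjusted p = 0.00176). Fxyd4, a regulator of the sodium pump, was at 74.5 ± 20.6 CPM (SD, n = 4) against 40.6 ± 3.23 CPM (SD, n = 6) without overlap (log2 fold change 0.88, SE 0.16, edgeR adjusted p = 0.00266). Kcne1, a potassium channel subunit, was at 10.4 ± 2.32 CPM (SD, n = 4) against 4.96 ± 1.8 CPM (SD, n = 6), and 3 of its 4 nephrectomy values exceeded all others (log2 fold change 1.11, SE 0.24, edgeR adjusted p = 0.00891). In the thick ascending limb 2 of 13 tested genes rose (15.4%, beside 2.58% of all genes tested) and none fell, except that 1 fell without UIRI+Nx d7 replicate 1. Umod, the urinary protein that marks this segment, was not called (edgeR adjusted p = 0.256). Kcnj10, a basolateral potassium channel of the distal nephron, rose from 13.9 ± 1.56 CPM (SD, n = 6) to 21.9 ± 1.54 CPM (SD, n = 4) without overlap (log2 fold change 0.65, SE 0.13, edgeR adjusted p = 0.00584).

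The summed level of the distal and connecting tubule markers was 1816 to 2688 CPM in the nephrectomy libraries and 1056 to 1396 CPM in the others. For principal cell markers the ranges were 489 to 678 and 266 to 386 CPM. Thick limb markers summed to 3061 to 3503 against 2646 to 3488 CPM and podocyte markers to 471 to 536 against 487 to 620 CPM, and both overlapped between groups. In such bulk samples a change in the number of cells of a type and a change in RNA per cell cannot be told apart. Whether the piece of the pole that was sectioned held more distal nephron in 1 group was not tested.

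**Figure D2:**
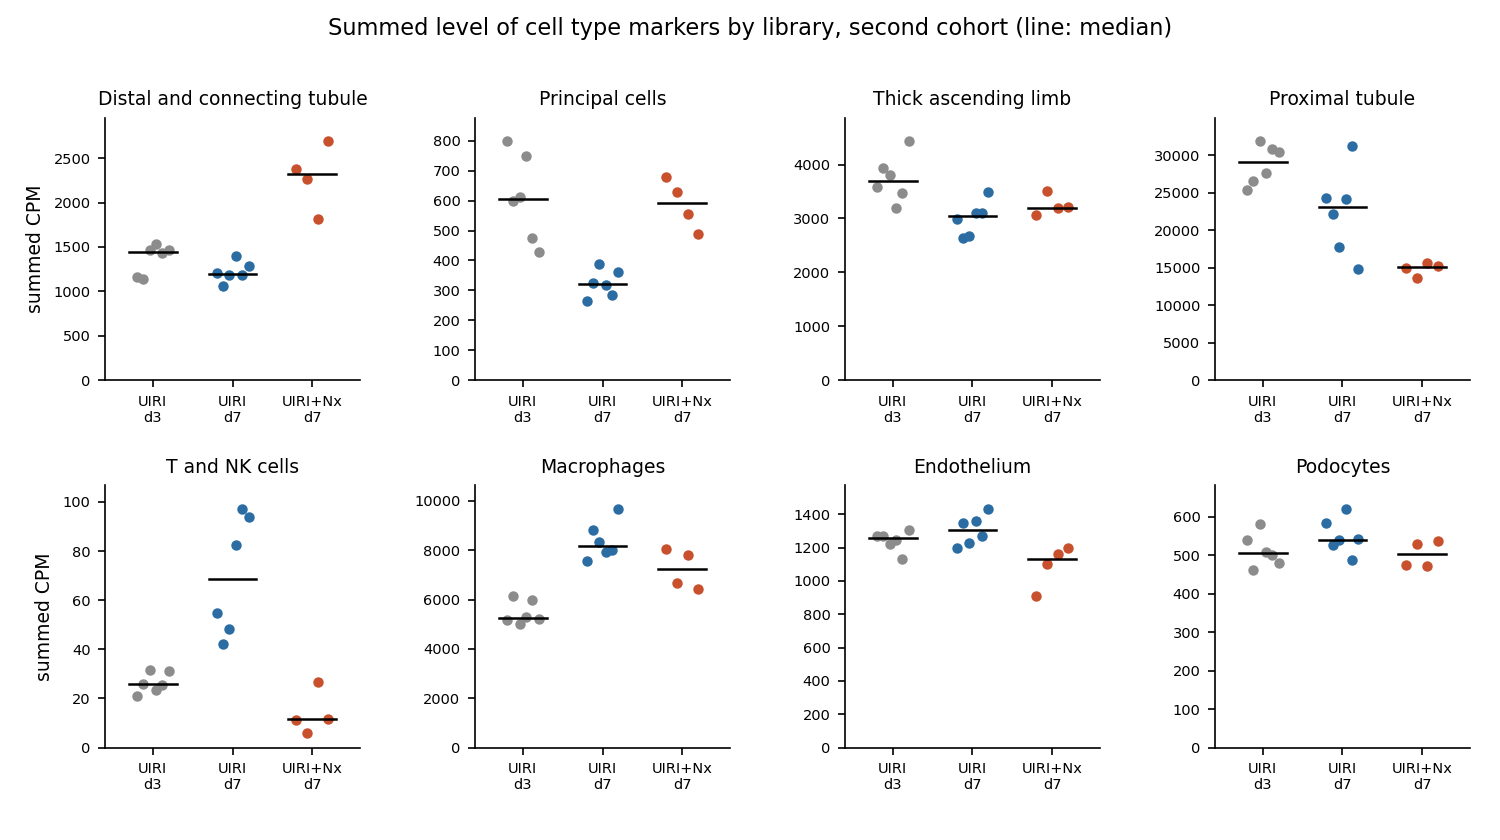
Summed CPM of the marker genes of 8 cell types (vertical axes, from 0) in each library of UIRI d3, UIRI d7 and UIRI+Nx d7, with a line at the group median. Sums are scaled to total counts without edgeR's factors. Distal and principal cell sums are higher and the T and NK cell sum is lower in all 4 nephrectomy libraries than in any UIRI d7 library, while thick limb and podocyte sums overlap.

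Genes for making glucose and ammonia, the proximal tubule's answer to an acid load, formed another group. Of 12 tested members 6 rose and none fell (median log2 fold change 0.66), and all 12 had a positive value. Slc38a3, the glutamine importer that feeds ammonia production (chromosome 9, 107650634 to 107669530), was at 75.2, 110.0, 35.2 and 79.2 CPM with nephrectomy and 7.67 to 19.1 CPM (median 9.87) without. Replicate 3 was the lowest of the nephrectomy libraries and still above all 6 others (log2 fold change 2.75, SE 0.29, edgeR adjusted p = 1.7e-05; 3.11 in the first run and 2.31 in the second). Slc4a4, the basolateral bicarbonate cotransporter, was at 966, 964, 557 and 756 CPM against 294 to 540.3 CPM (median 388) and did not overlap (log2 fold change 1.0, SE 0.17, edgeR adjusted p = 0.002). Pck1, the rate-limiting enzyme of glucose synthesis, was at 1905, 599, 951 and 721 CPM against 155 to 485 CPM (median 383), with replicate 1 far above the other 3 (log2 fold change 1.54, SE 0.41, edgeR adjusted p = 0.0352). Its call was lost with limma-voom and with the run of sheet numbers as a covariate. The call was also lost without UIRI+Nx d7 replicate 1 or UIRI d7 replicate 1, 2, 4 or 6 (edgeR adjusted p from 0.0552 to 0.155 in those fits). The list's count of 6 was 2 without UIRI+Nx d7 replicate 1 and 3 without UIRI d7 replicate 4. Gldc, the glycine-cleaving decarboxylase of mitochondria (chromosome 19, 30098447 to 30175429), was at 182, 141, 126 and 164 CPM against 17.8 to 36.4 CPM (median 27.1). The lowest nephrectomy value was over 3 times the highest of the others (log2 fold change 2.49, SE 0.20, edgeR adjusted p = 6.59e-07). Psat1, which makes serine, was at 50.7 ± 15.0 CPM (SD, n = 4) against 23.6 ± 5.41 CPM (SD, n = 6) without overlap (log2 fold change 1.11, SE 0.20, edgeR adjusted p = 0.0021).

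**Figure D3:**
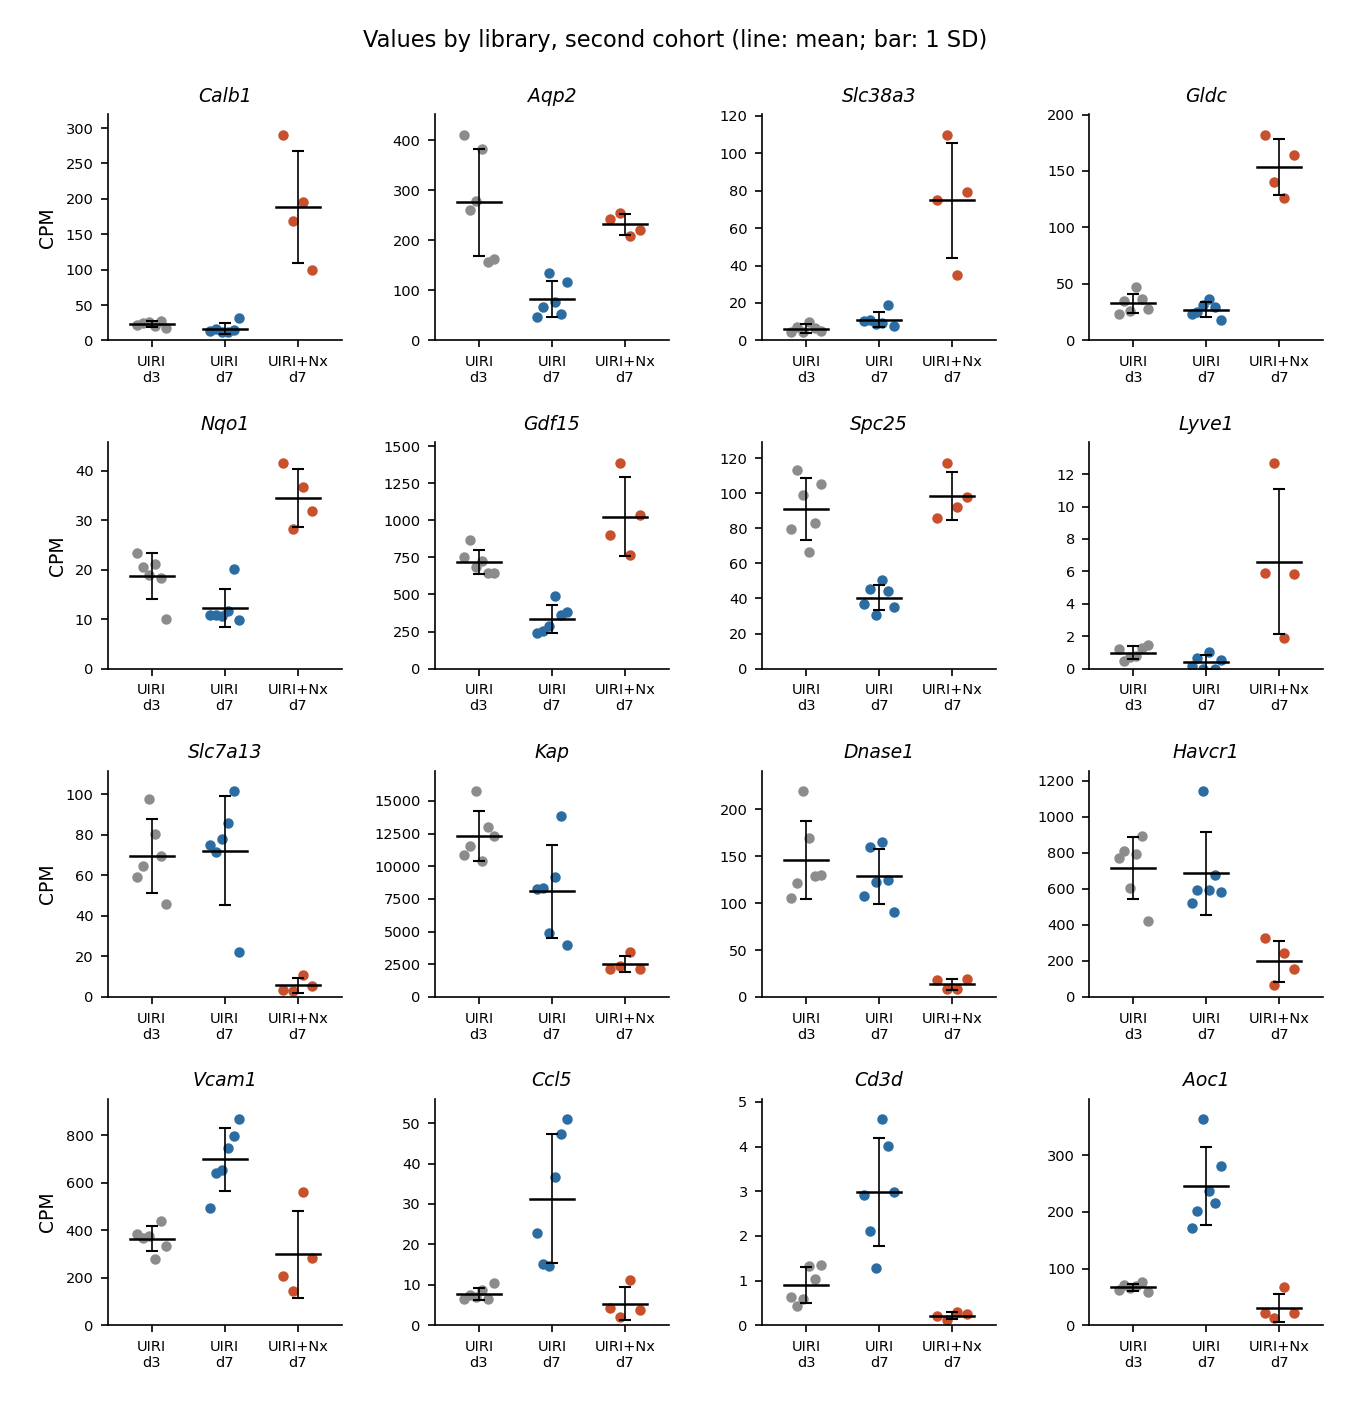
CPM of 16 genes (vertical axes, from 0) in each library of UIRI d3, UIRI d7 and UIRI+Nx d7, with the mean as a line and 1 SD as a bar. Calb1, Slc38a3, Gldc and Gdf15 lie higher in the 4 nephrectomy libraries than in all UIRI d7 libraries, and Slc7a13, Kap, Dnase1, Havcr1, Ccl5, Cd3d and Aoc1 lie lower.

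Proximal tubule markers moved in both directions. Of 45 tested 6 rose and 8 fell, and their median was -0.35 on the log2 scale. Without UIRI+Nx d7 replicate 1 or 2 or UIRI d7 replicate 4 the count that rose was 3, and without UIRI d7 replicate 6 the count that fell was 13. Slc34a1, the phosphate transporter, and Lrp2, the endocytic receptor megalin, were not called (edgeR adjusted p = 0.265 and 0.0932), though Lrp2 was called lower with DESeq2, with limma-voom, and in edgeR without UIRI+Nx d7 replicate 1 (adjusted p = 0.0277) or UIRI d7 replicate 6 (0.0221). Slc7a13, an amino acid transporter of the last straight part of the proximal tubule (chromosome 4, 19818725 to 19842218), was at 3.53, 2.87, 11 and 5.36 CPM with nephrectomy and 22.1 to 102 CPM (median 76.4) without. UIRI d7 replicate 6 held the lowest value of its group, which was still above all 4 nephrectomy values (log2 fold change -3.67, SE 0.41, edgeR adjusted p = 3.11e-05; -4.54 in the first run and -3.12 in the second). Kap, an androgen-induced kidney protein (chromosome 6, 133849851 to 133853762), was at 2113, 2398, 3412 and 2175 CPM against 3937 to 13864 CPM (median 8299) and fell without overlap (log2 fold change -1.68, SE 0.28, edgeR adjusted p = 0.00158; -1.88 in the first run and -1.52 in the second). Among 17 tested androgen-responsive genes 5 fell and 2 rose, and without UIRI+Nx d7 replicate 2 these counts were 3 and 1. The genes that rose were Cyp4a10 and Cyp4a14, near-identical relatives of other Cyp4a genes that 3′ reads may not separate. The summed level of all proximal tubule markers was 13560 to 15570 CPM with nephrectomy and 14775 to 31245 CPM without, and Kap alone made up a large part of it. UIRI d7 replicates 6 and 3 had the lowest sums of their group, at 14775 and 17783 CPM.

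Further genes fell by large factors. Dnase1, a secreted nuclease (chromosome 16, 4036942 to 4040024), was at 18.5, 8.94, 8.21 and 18.8 CPM against 90.0 to 165 CPM (median 124), and the groups stood wide apart (log2 fold change -3.26, SE 0.29, edgeR adjusted p = 1.62e-06; -3.32 in the first run and -3.25 in the second). Aoc1, an amine oxidase that degrades histamine and polyamines, was at 22.2, 12.9, 67.6 and 21.1 CPM against 171 to 363 CPM (median 226) (log2 fold change -2.98, SE 0.35, edgeR adjusted p = 5.51e-05). Replicate 3 was the highest nephrectomy library for Aoc1 and stood near the UIRI d3 mean of 67.3 ± 6.24 CPM (SD, n = 6), and without it the log2 fold change was -3.72. Stra6, the cellular receptor for retinol-binding protein, was at 2.7, 2.04, 8.06 and 6.99 CPM against 23.7 to 47.3 CPM (median 32.4), and at 3.79 ± 1.45 CPM at UIRI d3 (log2 fold change -2.86, SE 0.39, edgeR adjusted p = 0.000212; -4.16 in the first run and -2.09 in the second). Serpina6, which encodes the corticosteroid-binding globulin, was at 1.07 ± 0.235 CPM (SD, n = 4) against 11 ± 2.11 CPM (SD, n = 6), and at 1.45 ± 0.565 CPM at UIRI d3 (log2 fold change -3.38, SE 0.30, edgeR adjusted p = 1.62e-06). Defb36, a defensin, had 1.39 ± 0.323 CPM (SD, n = 4) against 9.67 ± 1.51 CPM (SD, n = 6), and 2.62 ± 1.2 CPM at UIRI d3 (log2 fold change -2.83, SE 0.33, edgeR adjusted p = 4.9e-05). For Aoc1, Stra6, Serpina6 and Defb36 the UIRI d7 group was thus the high one of the 3, and nephrectomy libraries were nearer to the UIRI d3 level. In the first run alone, which holds all UIRI d3 libraries, the means with and without nephrectomy were 17.5 and 187 CPM for Aoc1, 2.37 and 41.5 for Stra6, 1.11 and 12.8 for Serpina6 and 1.24 and 8.67 for Defb36 (n = 2 each), in the same order. For Slc7a13, Dnase1 and Kap the UIRI d3 means were 69.5 ± 18, 146 ± 41.8 and 12305 ± 1932 CPM (SD, n = 6), and the nephrectomy group was the low one.

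Organic ion transporters, which carry drugs and metabolites, fell in part. Of 22 tested 6 fell and 1 rose (median log2 fold change -0.38), 3 fell without UIRI+Nx d7 replicate 2, and 2 rose without replicate 3 of that group. Slc22a28 and Slc22a30, neighbours on chromosome 19 with similar sequences that 3′ reads may not separate, were at 4.9 ± 2.38 CPM (SD, n = 4) against 21.2 ± 9.55 CPM (SD, n = 6) (log2 fold change -2.14, SE 0.39, edgeR adjusted p = 0.0025; -2.52 in the first run and -1.93 in the second) and at 5.09 ± 2.71 CPM (SD, n = 4) against 20.6 ± 9.38 CPM (SD, n = 6) (log2 fold change -2.02, SE 0.40, edgeR adjusted p = 0.00489). Both overlapped, since UIRI d7 replicate 6 held 5.62 and 3.74 CPM. Slc22a22, a prostaglandin transporter, did not overlap (0.94 ± 0.817 CPM (SD, n = 4) against 5.51 ± 1.76 CPM (SD, n = 6); log2 fold change -2.60, SE 0.44, edgeR adjusted p = 0.00169). Abcc2, an export pump for conjugated compounds, was the member that rose, from 74.8 ± 17.0 CPM (SD, n = 6) to 173 ± 60.8 CPM (SD, n = 4) without overlap (log2 fold change 1.2, SE 0.19, edgeR adjusted p = 0.00105). Hsd3b2, a steroid dehydrogenase, was at 1.26 ± 0.64 CPM (SD, n = 4) against 8.71 ± 3.11 CPM (SD, n = 6) (log2 fold change -2.75, SE 0.33, edgeR adjusted p = 5.51e-05). Cyp2d12, a cytochrome P450, was at 0.864 ± 0.488 CPM (SD, n = 4) against 8.79 ± 3.44 CPM (SD, n = 6) (log2 fold change -3.37, SE 0.37, edgeR adjusted p = 3.11e-05). Car4, a membrane carbonic anhydrase, was at 10.8, 3.03, 18.8 and 8.23 CPM against 41.0 to 73.2 CPM (median 69.7), with every nephrectomy library below every other (log2 fold change -2.67, SE 0.33, edgeR adjusted p = 7.65e-05).

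NRF2 is the transcription factor that turns on detoxifying and antioxidant enzymes. Of 24 tested NRF2 targets 8 rose and none fell (median log2 fold change 0.36), and 1 fell without UIRI d7 replicate 6. Nqo1, the quinone reductase most used to read this pathway (chromosome 8, 107388225 to 107403206), was at 41.6, 28.2, 36.7 and 31.8 CPM with nephrectomy and 9.92 to 20.2 CPM (median 10.8) without. UIRI d7 replicate 5 was the highest of its group and still below all nephrectomy values (log2 fold change 1.49, SE 0.22, edgeR adjusted p = 0.000433; 1.69 in the first run and 1.38 in the second). Gsta4 and Gsta2, glutathione transferases with close relatives, rose from 7 ± 1.43 CPM (SD, n = 6) to 23.3 ± 8.35 CPM (SD, n = 4) (log2 fold change 1.74, SE 0.24, edgeR adjusted p = 0.000215) and from 123.5 ± 23.4 CPM (SD, n = 6) to 261 ± 61.0 CPM (SD, n = 4) (log2 fold change 1.08, SE 0.18, edgeR adjusted p = 0.00176). Cbr1, a carbonyl reductase, rose from 38.3 ± 8.44 CPM (SD, n = 6) to 88.7 ± 14.9 CPM (SD, n = 4) (log2 fold change 1.22, SE 0.18, edgeR adjusted p = 0.000406), and none of these 3 genes overlapped between groups. Txnrd1, the cytosolic thioredoxin reductase, was at 131 ± 43.3 CPM (SD, n = 4) against 70.7 ± 15.6 CPM (SD, n = 6) (log2 fold change 0.88, SE 0.19, edgeR adjusted p = 0.0101). Its call was lost without UIRI+Nx d7 replicate 2 (edgeR adjusted p = 0.0724). The core of the antioxidant response element, TGACNNNGC on either strand, was looked for in RefSeq promoters of GRCm38.p6, from 250 bases before to 50 bases after a gene's start. It occurred in 9 of 20 listed targets with a promoter in the table and in 16.8% of the 11244 tested genes searched. The list was chosen as NRF2 targets, so its higher share follows from the choice and tests nothing. Among the 7 called targets with a promoter it occurred in 1, Txnrd1.

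Fatty acid oxidation is the main fuel pathway of proximal tubule cells. Of its 35 tested genes 7 rose and none fell (median log2 fold change 0.26), and 4 rose without UIRI+Nx d7 replicate 2 or 4 or UIRI d7 replicate 4. Ppara, the nuclear receptor that drives the pathway (chromosome 15, 85734983 to 85802819), was at 116, 167, 78.4 and 104 CPM against 32.7 to 61.9 CPM (median 38.2), and all 4 nephrectomy libraries were the higher ones (log2 fold change 1.44, SE 0.25, edgeR adjusted p = 0.00209; 1.31 in the first run and 1.34 in the second). Cyp4a10, a fatty acid hydroxylase and a target of that receptor, is not on this list, and 3′ reads may not separate it from near-identical relatives. It was at 315 ± 122 CPM (SD, n = 4) against 108 ± 52.1 CPM (SD, n = 6), and 3 of 4 nephrectomy values exceeded all others (log2 fold change 1.55, SE 0.30, edgeR adjusted p = 0.00383). Echs1 and Eci1, enzymes of mitochondrial oxidation, rose by log2 fold changes of 0.60 and 0.69 without overlap (edgeR adjusted p = 0.00682 and 0.0115). The mitochondrial share of counts was higher in the same libraries (3.95% against 2.82%), and its part in these values was not tested.

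**Figure D4:**
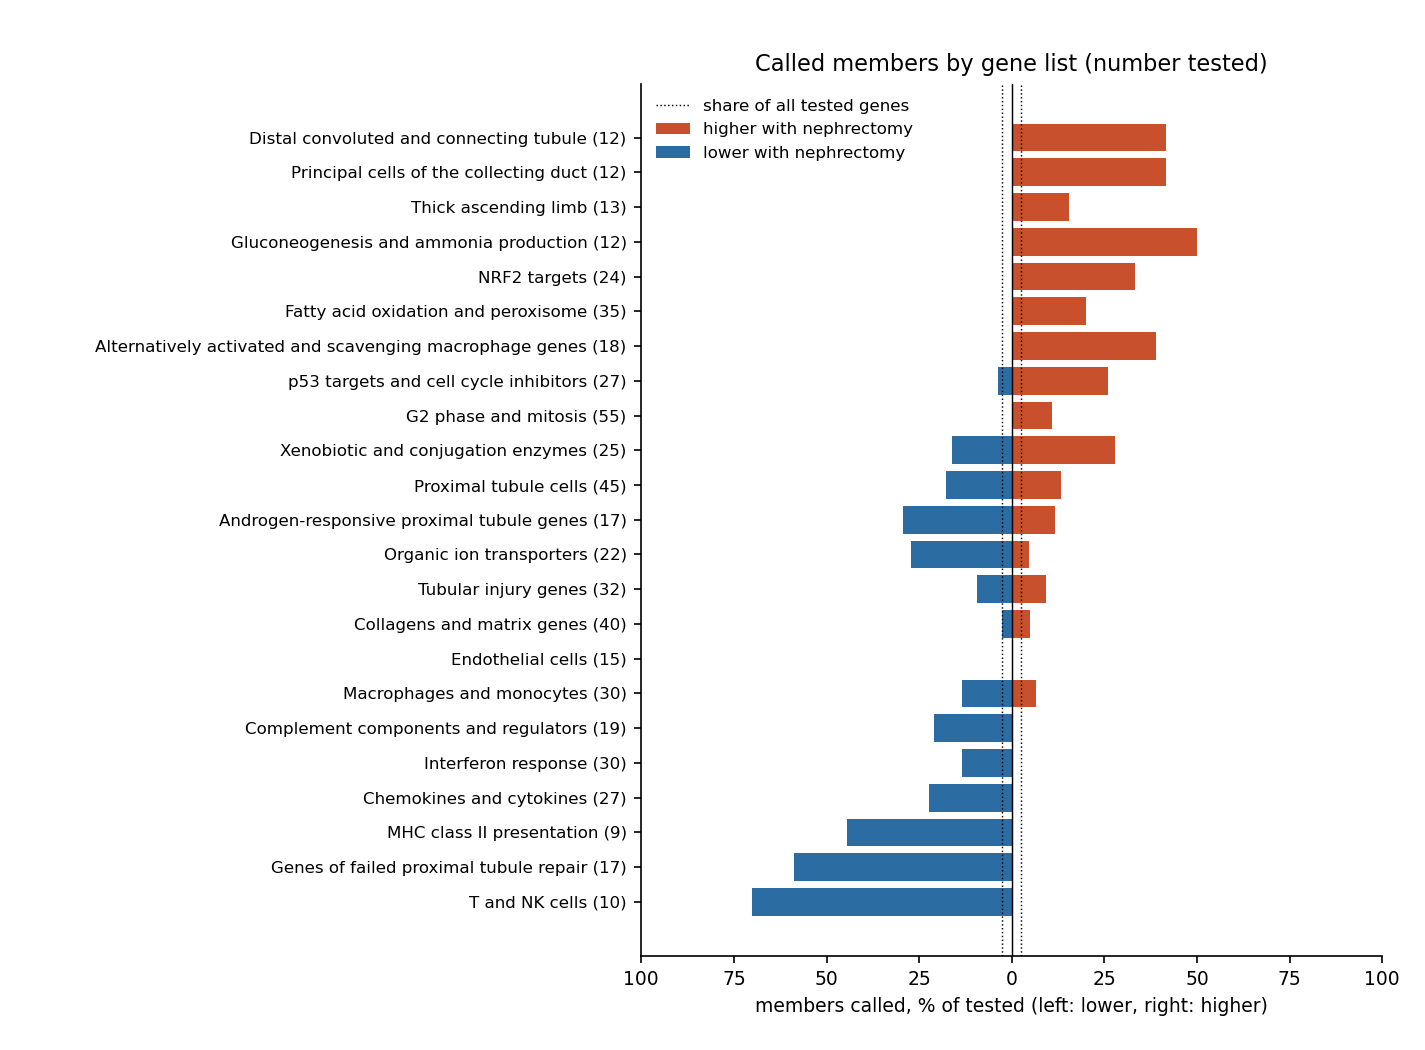
Share of tested members called in each gene list, in percent (right: higher with nephrectomy, left: lower), with the number tested in parentheses and dotted lines at the shares of all tested genes, 2.58% and 2.66%. Distal tubule, principal cell, glucose and ammonia, NRF2 and scavenging macrophage lists extend to the right, T and NK cell, failed repair and MHC class II lists to the left, and the endothelial list has no called member.

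Injury markers of the tubule split. Of 32 tested 3 rose and 3 fell, and without UIRI+Nx d7 replicate 3 the count that rose was 6. Havcr1 (KIM-1, the receptor by which injured proximal tubule cells take up dead cells; chromosome 11, 46735080 to 46779578) was at 328, 64.9, 244 and 156 CPM with nephrectomy and 523 to 1141 CPM (median 594) without. All nephrectomy values were the lower ones although they spread widely (log2 fold change -1.79, SE 0.34, edgeR adjusted p = 0.00372; -1.52 in the first run and -1.92 in the second). At UIRI d3 it was at 714 ± 173 CPM (SD, n = 6). Cd44, a hyaluronan receptor of injured epithelium and leukocytes, was at 65.6, 26.7, 59.6 and 36.8 CPM against 76.0 to 133 CPM (median 100.2) and likewise did not overlap (log2 fold change -1.13, SE 0.24, edgeR adjusted p = 0.0096). Lcn2 (NGAL, a secreted marker made largely by distal segments after injury) went the other way, at 269, 397, 225 and 382 CPM against 105 to 262 CPM (median 136), with 3 of 4 nephrectomy libraries above all others (log2 fold change 1.08, SE 0.22, edgeR adjusted p = 0.00565). Krt7, a keratin of the collecting duct and of injured tubules, rose from 76.0 ± 17.2 CPM (SD, n = 6) to 149.7 ± 19.1 CPM (SD, n = 4) without overlap (log2 fold change 0.98, SE 0.15, edgeR adjusted p = 0.000633).

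Most listed genes of failed proximal tubule repair, which include adhesion molecules and targets and members of the NF-kappaB pathway, fell with nephrectomy. Of 17 tested members 10 fell and none rose (median log2 fold change -0.79). The count was 5 without UIRI+Nx d7 replicate 1, 3 without replicate 2 and 6 without replicate 4 of that group. Vcam1, the adhesion molecule by which these cells are recognised (chromosome 3, 116109949 to 116129688), was at 207, 144, 560.2 and 283 CPM with nephrectomy and 493 to 866 CPM (median 699) without. Replicate 3 lay within the range of UIRI d7 and the other 3 below it (log2 fold change -1.23, SE 0.27, edgeR adjusted p = 0.0115; -1.70 in the first run and -0.87 in the second). At UIRI d3 Vcam1 was at 364 ± 53.4 CPM (SD, n = 6). Cxcl2, a neutrophil attractant, was at 21.8, 3.31, 7.54 and 8.11 CPM against 21.0 to 43.5 CPM (median 33.4), with replicate 1 within the other group's range (log2 fold change -1.73, SE 0.37, edgeR adjusted p = 0.00824). Without that library the log2 fold change was -2.43. Its neighbour and relative Cxcl1 was at 51.0, 10.2, 47.0 and 26.7 CPM against 77.1 to 122 CPM (median 91.1) and did not overlap (log2 fold change -1.50, SE 0.36, edgeR adjusted p = 0.0181), and its call was lost without UIRI+Nx d7 replicate 4 (edgeR adjusted p = 0.0556). Nfkb2, a subunit of NF-kappaB, was at 16.0 ± 5.03 CPM (SD, n = 4) against 29.2 ± 6.42 CPM (SD, n = 6) (log2 fold change -0.87, SE 0.21, edgeR adjusted p = 0.0188), and its call was lost without UIRI+Nx d7 replicate 1 or 2 (edgeR adjusted p = 0.0584 and 0.0636).

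The binding motif of NF-kappaB, searched as GGGANNTTCC on either strand in the same RefSeq promoters, occurred in 4 of the 12 failed repair genes with a promoter in the table. It occurred in 1.81% of the 11244 tested genes searched. The list includes known targets and members of this pathway, and Cxcl1 and Cxcl2 are related neighbours. The higher share in the list thus follows from the choice of genes and tests nothing. Those with the motif were Cxcl1, Cxcl2, Nfkb2 and Csf1, and 3 of the 7 called members with a promoter held it. A match describes letters and does not show binding. Cxcl1 and Cxcl2, both called, are shown beside Csf1, which encodes the macrophage growth factor, not called (36.5 ± 19.6 CPM (SD, n = 4) against 31.4 ± 9.98 CPM (SD, n = 6); edgeR adjusted p = 0.728). Nfkb2, with matches at more than 1 annotated start, is not printed. Each sequence is the 250 bases before the start, 5′ to 3′ along the gene, from RefSeq on GRCm38.p6, with the motif in capitals. On Cxcl1 and Cxcl2 2 overlapping matches make up the capitals, with their outermost base 71 and 97 bases before the start, and on Csf1 the match begins 154 bases before it.
Cxcl1 (chr5:90890995-90891244, plus strand): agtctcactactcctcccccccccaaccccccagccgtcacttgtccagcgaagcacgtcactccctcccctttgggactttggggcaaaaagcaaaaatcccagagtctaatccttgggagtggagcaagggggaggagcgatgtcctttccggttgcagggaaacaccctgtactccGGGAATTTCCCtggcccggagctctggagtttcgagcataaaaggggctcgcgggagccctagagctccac
Cxcl2 (chr5:90903649-90903898, plus strand): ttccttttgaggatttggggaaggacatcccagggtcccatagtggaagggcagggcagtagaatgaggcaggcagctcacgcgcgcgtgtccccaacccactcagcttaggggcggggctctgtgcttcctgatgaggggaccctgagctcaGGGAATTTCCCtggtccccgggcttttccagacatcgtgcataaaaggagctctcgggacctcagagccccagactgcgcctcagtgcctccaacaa
Csf1 (chr3:107760470-107760719, minus strand): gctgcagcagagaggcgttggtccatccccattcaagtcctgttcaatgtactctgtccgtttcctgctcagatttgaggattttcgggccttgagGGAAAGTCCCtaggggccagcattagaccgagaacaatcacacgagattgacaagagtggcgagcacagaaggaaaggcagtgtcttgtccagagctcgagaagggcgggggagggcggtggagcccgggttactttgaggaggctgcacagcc

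T and natural killer (NK) cells are lymphocytes that enter injured kidneys in the days after ischemia. Of 15 marker genes 10 were abundant enough to be tested, 7 of these fell and none rose (median log2 fold change -2.11). The count that fell was 4 without UIRI+Nx d7 replicate 1 or 2 or UIRI d7 replicate 5. Members as low with nephrectomy as Cd3d passed the filter only through groups where they were higher. The same holds for Tbx21, which is given below but is not among the 10 tested markers, whose lowest log2 fold change was -3.81. The counts and median thus describe the members that passed and not the whole list. The summed level of the 15 markers was 6.05 to 26.7 CPM with nephrectomy, 42.3 to 97.1 CPM without and 21.1 to 31.6 CPM at UIRI d3. Ccl5, a chemokine made by these cells (chromosome 11, 83525778 to 83530518), was at 4.15, 2.08, 11.3 and 3.74 CPM against 14.8 to 50.9 CPM (median 29.8), with replicate 3 the highest nephrectomy value and all 4 below the other group (log2 fold change -2.55, SE 0.43, edgeR adjusted p = 0.0017; -2.67 in the first run and -2.28 in the second). Trac, the constant segment of the T cell receptor alpha chain, was at 1.56, 0.679, 1.63 and 0.873 CPM against 2.61 to 7.81 CPM (median 4.55) without overlap (log2 fold change -2.01, SE 0.35, edgeR adjusted p = 0.00199). Il2rb, a receptor chain for interleukin 2 and 15, was at 0.83, 0.519, 3.55 and 0.749 CPM against 4.81 to 13.3 CPM (median 7.7) (log2 fold change -2.49, SE 0.44, edgeR adjusted p = 0.0021). Replicate 3 again stood above the other 3 nephrectomy libraries, and without it the log2 fold changes of Ccl5 and Il2rb were -3.27 and -3.57. Cd3d, part of the T cell receptor complex, was read by 11 counts in the 4 nephrectomy libraries together and by 253 counts in the 6 others, 0.218 ± 0.0748 CPM (SD, n = 4) against 2.99 ± 1.21 CPM (SD, n = 6) (log2 fold change -3.81, SE 0.51, edgeR adjusted p = 0.000203). Tbx21, the factor of T helper 1 and NK cells, had 14 counts against 495 (0.351 ± 0.268 CPM (SD, n = 4) against 6.64 ± 2.98 CPM (SD, n = 6); log2 fold change -4.50, SE 0.62, edgeR adjusted p = 0.000218), and its log2 fold change was -3.91 without UIRI+Nx d7 replicate 2. Klrc1, an NK cell receptor, was at 0.876 ± 0.524 CPM (SD, n = 4) against 5.85 ± 3.05 CPM (SD, n = 6) (log2 fold change -2.81, SE 0.51, edgeR adjusted p = 0.00266).

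Some chemokine and interferon-induced genes were lower in the same libraries. Of 27 tested chemokine and cytokine genes 6 fell and none rose, and 10 of the 27 had a positive log2 fold change. Of 30 tested interferon response genes 4 fell and none rose, and 7 had a positive value. Both lists hold Cxcl9, so their counts are not separate. The interferon count was 2 without UIRI+Nx d7 replicate 1 or 4 and 10 without replicate 3 of that group. Cxcl9, a T cell attractant induced by interferon gamma, was at 0.623, 0.918, 5.17 and 0.374 CPM against 7.24 to 20.0 CPM (median 12.3) (log2 fold change -2.72, SE 0.49, edgeR adjusted p = 0.00263), and its log2 fold change was -4.10 without UIRI+Nx d7 replicate 3. Cxcl10, of the same family, was at 5.4, 2.51, 17.4 and 3.87 CPM against 20.9 to 54.9 CPM (median 39.1), and both genes were lower in every nephrectomy library (log2 fold change -2.44, SE 0.41, edgeR adjusted p = 0.00163). For Cxcl10 the log2 fold change was -3.38 without replicate 3. Of 9 tested genes of MHC class II presentation 4 fell and none rose. That count was 1 without UIRI+Nx d7 replicate 1, 2 or 4 and 2 without UIRI d7 replicate 4, 5 or 6. H2-Aa, a class II chain with related genes, was at 63.5, 18.2, 183 and 34.2 CPM against 162 to 353 CPM (median 292), and replicate 3 lay in the range of the other group (log2 fold change -1.89, SE 0.43, edgeR adjusted p = 0.0135). Its log2 fold change was -2.85 without that library. C4b and Cfi, of the complement system, fell from 77.9 ± 19.8 CPM (SD, n = 6) to 31.5 ± 13.2 CPM (SD, n = 4) (log2 fold change -1.30, SE 0.24, edgeR adjusted p = 0.00295) and from 18.4 ± 2.74 CPM (SD, n = 6) to 7.76 ± 2.97 CPM (SD, n = 4) (log2 fold change -1.25, SE 0.25, edgeR adjusted p = 0.00566), both without overlap. Replicate 3 was thus the nephrectomy library with the highest Ccl5, Trac, Il2rb, Cd3d, Cxcl9, Cxcl10, H2-Aa and Vcam1. For Cd3d this order rests on 2, 3, 4 and 2 counts in replicates 1 to 4, and for Trac replicate 1 was close. Tbx21 did not follow it, with 5, 1, 3 and 5 counts. The T and NK cell sums moved with these genes, and their part in the chemokine, interferon and class II values was not tested.

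Macrophage genes moved in both directions. Of 30 general macrophage and monocyte markers 4 fell and 2 rose. Without UIRI+Nx d7 replicate 4 these counts were 2 and 1, the count that fell was 2 without replicate 2, and the count that rose was 1 without replicate 1. Of 18 tested genes of alternatively activated and scavenging macrophages 7 rose and none fell (median log2 fold change 0.53), and without UIRI+Nx d7 replicate 3 there were 2 that fell. Ccr2, the receptor that brings monocytes from the blood, was at 15.6, 8.42, 12.5 and 10.4 CPM with nephrectomy and 24.0 to 38.5 CPM (median 28.7) without, and all 4 values were the lower ones (log2 fold change -1.33, SE 0.23, edgeR adjusted p = 0.00186). Adgre1, the macrophage marker F4/80, fell from 24.9 ± 5.05 CPM (SD, n = 6) to 14.0 ± 4.06 CPM (SD, n = 4) without overlap (log2 fold change -0.85, SE 0.20, edgeR adjusted p = 0.0183), a call lost without UIRI+Nx d7 replicate 2 (edgeR adjusted p = 0.0864). The hyaluronan receptor Lyve1, found on lymphatic vessels and some resident macrophages (chromosome 7, 110850607 to 110863239), was at 5.92, 12.7, 1.92 and 5.86 CPM against 0 to 1.02 CPM (median 0.348). Replicate 3 was the lowest of the nephrectomy libraries and above all others (log2 fold change 3.89, SE 0.59, edgeR adjusted p = 0.000635; 4.41 in the first run and 3.05 in the second). Marco, a scavenger receptor, was at 6.95, 3.87, 1.4 and 9.86 CPM against 0.313 to 0.781 CPM (median 0.57) (log2 fold change 3.34, SE 0.61, edgeR adjusted p = 0.00271). Folr2, the folate receptor of resident macrophages, was at 14.3, 26.4, 18.7 and 14.3 CPM against 5.4 to 10.5 CPM (median 8.28) (log2 fold change 1.2, SE 0.20, edgeR adjusted p = 0.00176). Neither overlapped. Chil3, a lectin of activated macrophages, was at 17.1, 13.8, 1.77 and 6.99 CPM against 0.27 to 4.12 CPM (median 0.686), with 3 of 4 values above all others (log2 fold change 3.17, SE 0.57, edgeR adjusted p = 0.00246; 4.29 in the first run and 1.61 in the second), and a log2 fold change of 3.77 without UIRI d7 replicate 6. Arg1, arginase of alternatively activated macrophages, was at 36.5, 17.5, 7.1 and 32.8 CPM against 2.73 to 10.5 CPM (median 7.13) (log2 fold change 1.68, SE 0.39, edgeR adjusted p = 0.016), and its call was lost without UIRI+Nx d7 replicate 1 or 4 (edgeR adjusted p = 0.0639 and 0.0535). The summed macrophage markers were 6439 to 8065 CPM against 7543 to 9669 CPM and overlapped.

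Some genes of mitosis rose, while S phase genes were called in no larger share than all genes. Of 55 tested genes of G2 phase and mitosis 6 rose (10.9%, beside 2.58% of all genes tested) and none fell. Their median log2 fold change was 0.30, and 3 rose without UIRI+Nx d7 replicate 2. Of 48 tested S phase genes 1 rose (2.08%, median 0.09), and none without UIRI+Nx d7 replicate 3 or UIRI d7 replicate 1, 2 or 3. Spc25, a part of the kinetochore that holds chromosomes to the spindle (chromosome 2, 69193895 to 69206194), was at 86, 117, 92.1 and 97.7 CPM with nephrectomy and 30.9 to 50.4 CPM (median 40.6) without. The nephrectomy values were above all 6 others and near the UIRI d3 mean of 91.0 ± 17.7 CPM (SD, n = 6; log2 fold change 1.28, SE 0.16, edgeR adjusted p = 0.0001). The log2 fold changes were 1.31 in the first run and 1.22 in the second. Cdca3, which helps cells enter mitosis, rose from 9.91 ± 1.18 CPM (SD, n = 6) to 16.9 ± 4.02 CPM (SD, n = 4) without overlap (log2 fold change 0.78, SE 0.16, edgeR adjusted p = 0.00869), and its call was lost with limma-voom and at equal depth. Mki67, the Ki-67 proliferation marker, rose from 10.0 ± 1.84 CPM (SD, n = 6) to 16.9 ± 4.5 CPM (SD, n = 4) (log2 fold change 0.74, SE 0.18, edgeR adjusted p = 0.0206), a call lost without UIRI+Nx d7 replicate 2 (edgeR adjusted p = 0.15) and without the UIRI d3 libraries. Top2a, the mitotic topoisomerase, was at 103 ± 8.88 CPM (SD, n = 4) against 85.4 ± 10.5 CPM (SD, n = 6) and was not called (edgeR adjusted p = 0.233).

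Of 27 tested p53 targets and cell cycle inhibitors 7 rose and 1 fell. The count that rose was 4 without UIRI+Nx d7 replicate 1 or 4 or UIRI d7 replicate 1, 3, 4 or 5, and 3 without UIRI+Nx d7 replicate 2. Gdf15, a stress hormone that acts on appetite (chromosome 8, 70629393 to 70632456), was at 903, 1387, 769 and 1033 CPM against 238 to 489 CPM (median 325), with no overlap (log2 fold change 1.61, SE 0.19, edgeR adjusted p = 5.58e-05; 2.21 in the first run and 1.24 in the second). At UIRI d3 it was at 720.1 ± 82.3 CPM (SD, n = 6), between the day 7 groups. Cdkn1a, the p21 inhibitor of the cell cycle, rose from 83.1 ± 14.9 CPM (SD, n = 6) to 141 ± 24.6 CPM (SD, n = 4) without overlap (log2 fold change 0.76, SE 0.17, edgeR adjusted p = 0.0103), a call lost without UIRI+Nx d7 replicate 2 (edgeR adjusted p = 0.0597). Gadd45b, a stress gene that NF-kappaB also induces, fell from 11.9 ± 2.16 CPM (SD, n = 6) to 6.38 ± 0.578 CPM (SD, n = 4) (log2 fold change -0.90, SE 0.18, edgeR adjusted p = 0.00639), with all nephrectomy values the lower ones.

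Matrix genes were called in a share near that of all genes. Of 40 tested collagens and matrix genes 2 rose and 1 fell (7.5% beside 5.24% of all genes tested), and of 15 endothelial markers none was called. No matrix gene fell without UIRI+Nx d7 replicate 1 or 2 or UIRI d7 replicate 4, and 2 fell without UIRI+Nx d7 replicate 3. The count that rose was 1 without UIRI+Nx d7 replicate 2. For the endothelial list no member had an adjusted p under 0.05 in edgeR, 5 had an unadjusted p under 0.05, DESeq2 called 0, and 1 was called lower in edgeR without UIRI+Nx d7 replicate 3. Their summed level, scaled to total counts without edgeR's factors, was 907 to 1197 CPM with nephrectomy and 1198 to 1431 CPM without. The nearest values lay close, at 1196.64 CPM with and 1198.23 CPM without nephrectomy. Overlap on the scale of edgeR's factors was not tested. Fbn1, fibrillin of elastic fibres, rose from 76.9 ± 13.7 CPM (SD, n = 6) to 121 ± 15.1 CPM (SD, n = 4) without overlap (log2 fold change 0.66, SE 0.13, edgeR adjusted p = 0.0058; 0.59 in the first run and 0.63 in the second). Col1a1, the main chain of scar collagen, was at 636, 685, 674 and 580.3 CPM against 481 to 617 CPM (median 538) and was not called (edgeR adjusted p = 0.219). Acta2, the smooth muscle actin of myofibroblasts, was at 281 ± 15.4 CPM (SD, n = 4) against 302 ± 34.1 CPM (SD, n = 6) (edgeR adjusted p = 0.744).

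Several of the genes with the largest changes belong to none of these groups. Muc13, a membrane mucin of epithelia, was at 5.08, 5.87, 1.77 and 8.73 CPM with nephrectomy and 0 to 0.405 CPM (median 0.227) without, read by 290 and 25 counts in all. All nephrectomy values were above all others (log2 fold change 4.33, SE 0.58, edgeR adjusted p = 0.000193; 3.92 in the first run and 4.94 in the second). Fam25c was at 10.8, 17.6, 4.66 and 25.5 CPM against 0.717 to 3.47 CPM (median 2.51) (log2 fold change 2.71, SE 0.38, edgeR adjusted p = 0.000247). Tchhl1 was at 10.1, 20.5, 6.95 and 17.2 CPM against 0.574 to 5.39 CPM (median 3.88) (log2 fold change 1.96, SE 0.37, edgeR adjusted p = 0.00344). Lrtm2, a leucine-rich repeat membrane protein, rose from 7.65 ± 2.6 CPM (SD, n = 6) to 42.2 ± 15.5 CPM (SD, n = 4) (log2 fold change 2.49, SE 0.30, edgeR adjusted p = 5.87e-05). Kcnip2, a potassium channel partner, rose from 2.68 ± 1.67 CPM (SD, n = 6) to 13.2 ± 8.36 CPM (SD, n = 4) (log2 fold change 2.34, SE 0.47, edgeR adjusted p = 0.00597). Slc16a14, a member of the monocarboxylate transporter family, rose from 6.07 ± 3.79 CPM (SD, n = 6) to 29.7 ± 15.8 CPM (SD, n = 4) (log2 fold change 2.21, SE 0.40, edgeR adjusted p = 0.00268). Cwh43 rose from 5.02 ± 1.5 CPM (SD, n = 6) to 19.0 ± 2.14 CPM (SD, n = 4) (log2 fold change 1.94, SE 0.21, edgeR adjusted p = 3.05e-05). Genes of largest change were chosen among called genes without overlap, so the lack of overlap in these 7 was set by the choice.

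Of 13 tested genes of retinoid metabolism 2 rose and 2 fell (30.8% called, beside 5.24% of all genes tested). The count that fell was 1 without UIRI+Nx d7 replicate 1, 2 or 4 or UIRI d7 replicate 1, 2, 3, 4 or 5. Aldh1a1, which makes retinoic acid from retinal, rose from 11.9 ± 4.79 CPM (SD, n = 6) to 37.4 ± 16.6 CPM (SD, n = 4) (log2 fold change 1.67, SE 0.29, edgeR adjusted p = 0.00206). Its neighbour and close relative Aldh1a7 rose from 19.8 ± 5.28 CPM (SD, n = 6) to 66.3 ± 28.7 CPM (SD, n = 4) (log2 fold change 1.75, SE 0.24, edgeR adjusted p = 0.000262). Id1, a target of bone morphogenetic proteins, rose from 97.3 ± 17.7 CPM (SD, n = 6) to 220.1 ± 53.4 CPM (SD, n = 4) without overlap (log2 fold change 1.18, SE 0.21, edgeR adjusted p = 0.00226). Hlf, a clock output gene, rose from 56.7 ± 9.37 CPM (SD, n = 6) to 85.9 ± 10.1 CPM (SD, n = 4) without overlap (log2 fold change 0.60, SE 0.13, edgeR adjusted p = 0.00877), and 2 of 19 tested clock genes were called, or 1 without UIRI+Nx d7 replicate 1 or 2.

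The same comparison in the first cohort, 6 samples against 6 that share no library with these, called 1040 of 15701 genes (6.62%), 497 higher (3.17%) and 543 lower (3.46%). Of 491 genes called higher there and tested in both cohorts, 128 (26.1%) were called higher in the second cohort, and of 533 called lower, 169 (31.7%) were called lower. None was called in the opposite direction. From the side of the second cohort these were 32.0% of its 400 higher genes and 41.8% of its 404 lower genes tested in both. The sign in the first cohort was the same for 90.2% of the second cohort's higher genes and 93.6% of its lower genes, beside 59.2% over all 15263 genes tested in both. Across those genes the log2 fold changes had a Pearson correlation of 0.509 and a Spearman correlation of 0.334, given as a description over genes that are not independent. The genes called higher in the second cohort had a median log2 fold change of 0.83 in it and 0.54 in the first, and those called lower -1.08 and -0.90. In a joint test of the difference between cohorts no gene of 16606 passed in edgeR, 1411 had an unadjusted p under 0.05, DESeq2 called 4, and the smallest edgeR adjusted p was 0.324, for Rgl1.

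**Figure D5:**
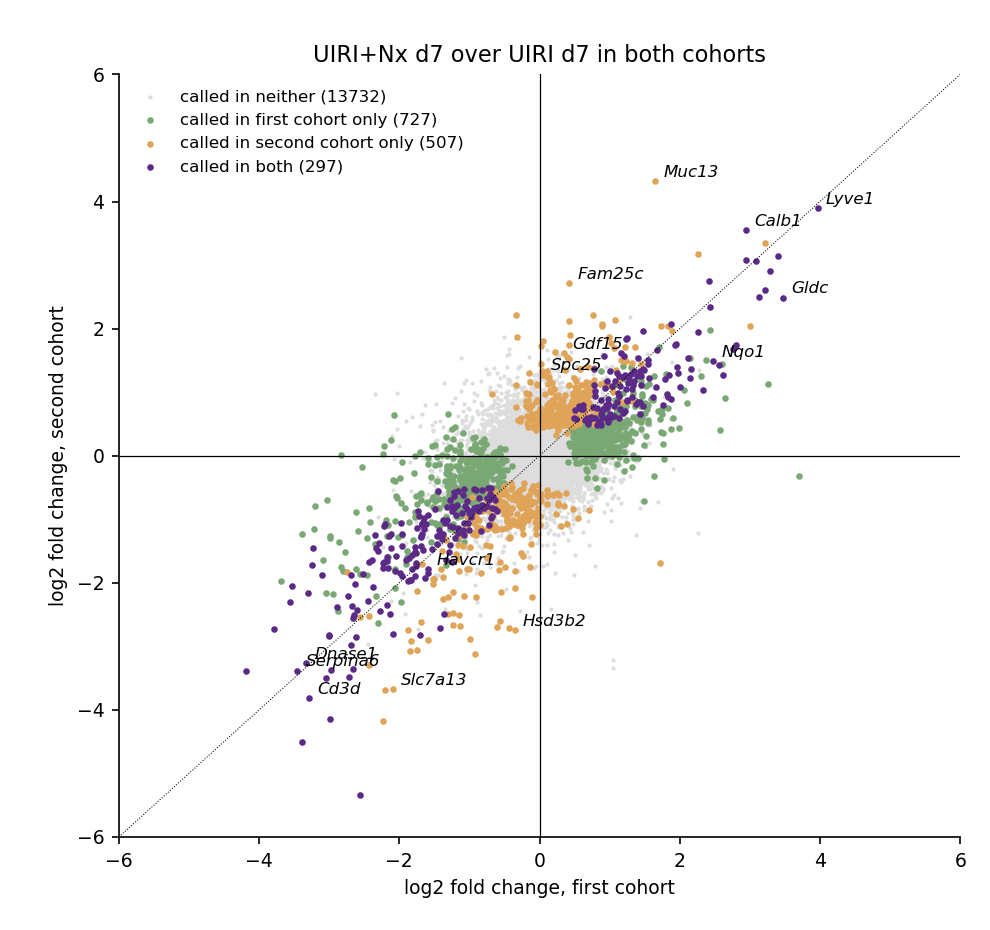
Log2 fold change of UIRI+Nx d7 over UIRI d7 in the first cohort (horizontal axis) and the second (vertical axis), with 1 point per gene tested in both, a dotted line of equality and 1 gene outside the axes. The 297 genes called in both cohorts lie in the quadrants of equal sign, while Fam25c, Hsd3b2 and Spc25 lie between -0.36 and 0.42 in the first cohort.

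Single genes gave close values in both cohorts in many cases. The log2 fold change in the first cohort was 2.94 for Calb1 (second 3.54), 3.96 for Lyve1 (3.89), -3.32 for Dnase1 (-3.26) and -3.45 for Serpina6 (-3.38). It was -1.59 for Havcr1 (-1.79), -3.28 for Cd3d (-3.81) and -2.66 for Ccl5 (-2.55). Gldc and Nqo1 had larger values in the first cohort, 3.47 and 2.48, than here, 2.49 and 1.49 (adjusted p of the difference 0.685 and 0.54 in edgeR). Other genes were called in the second cohort and not in the first. Gdf15 had 0.35 (SE 0.36) there and 1.61 (SE 0.19) here, Spc25 0.05 (0.25) and 1.28 (0.16), Hsd3b2 -0.36 (0.47) and -2.75 (0.33), and Fam25c 0.42 (0.55) and 2.71 (0.38). The adjusted p of these differences in edgeR was 0.557, 0.443, 0.443 and 0.488, so none was shown to differ between cohorts. By list, the median log2 fold change of G2 and mitosis genes was 0.30 here and -0.06 in the first cohort, where 1 of 55 fell and none rose. For proximal tubule markers the medians were -0.35 and 0.26, for T and NK cell genes -2.11 and -2.64, for failed repair genes -0.79 and -1.17, and for NRF2 targets 0.36 and 0.60.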

How the data were processed

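The authors deposited a single table of raw counts per gene (3′ end reads, QuantSeq 3′ FWD kit per the labels' protocols) for all samples. Per the submitters' processing notes, reads of the second cohort were aligned with STAR 2.7.11b to GRCm39, and Trimmomatic, STAR, HTSeq 0.6.1 and GRCm38 are named for the first. For the second cohort the sources used here do not name a counting tool, annotation or strand setting, so overlapping genes may not be separated. The table holds 48795 genes, of which 48349 IDs matched a symbol. Positions are those of the GENCODE annotation of GRCm38, and no GRCm39 annotation was used here.

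The 16 libraries of the second cohort (UIRI d3, UIRI d7, UIRI+Nx d7) were fitted together with edgeR 4.0.16 in R 4.3.3, so that they share an estimate of the spread. The fit used TMM factors, filterByExpr, the quasi-likelihood F test and Benjamini-Hochberg adjustment over every tested gene. The threshold was 0.05. The SE is the log2 fold change over the square root of F. The column of unassigned reads was left out. The first cohort was fitted apart, and all 40 libraries with a group jointly for the difference between cohorts. DESeq2 1.42.0, limma 3.58.1, other filters and size factors, equal depth, blocks and left-out libraries were alternatives. Library measures were tested by exact permutation. Tables were joined with pandas 2.3.3 and numpy 2.4.6 in Python 3.11.15, and the fit was tested on simulated data.

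Replicates differed by far more than sampling noise (chi-square per gene 8.56 to 52.8 in UIRI d7 and 37.8 to 90.6 in UIRI+Nx d7), so none was taken as a repeat deposit of another. Depth limits low genes most.

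Members and gene lists were chosen with earlier results of these data known. Named were up to 12 non-overlapping genes in each direction with the largest change at 5 CPM or more in a group, leaving out unnamed gene models, immunoglobulin and T cell receptor segments, and mitochondrial, ribosomal protein and histone genes. The lack of overlap in genes so named was set by the choice. Added were up to 4 genes per list, those of lowest adjusted p, a list of marker genes, and up to 6 genes in each direction for the cohort difference. From these the text takes those it can set in a group or that changed most. Slc12a3, Txnrd1, Cxcl1, Nfkb2 and Csf1 lie outside this rule and were chosen after their values were seen.

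A few genes that this rule names are not reported here.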

Additional observations from a re-analysis of the deposited data

Results flagged for a closer look

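For each named gene and library measure, the highest and the lowest library of each day 7 group were compared with their nearest neighbour by Dixon's criterion. Of 194 groups tested 16 had a library set apart, and all 16 were the highest of their group. The criterion's rate of about 1 in 20 holds for normally spread, independent values. Gene values here were CPM without a log transform, where high values stand apart more easily, and many genes were chosen for large changes. No excess over chance is therefore read from the count.

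In UIRI+Nx d7, replicate 3 stood apart for Il2rb at 3.55 CPM (next 0.830), Cxcl9 at 5.17 CPM (next 0.918) and Aoc1 at 67.6 CPM (next 22.2). The lymphocyte receptor chain, the T cell attractant and the amine oxidase were thus all nearest to the level without nephrectomy in that library, which also held the highest T and NK cell marker sum of its group, 26.7 CPM. Replicate 4 stood apart for the calcium carrier S100g at 1047 CPM (next 596) and replicate 2 for Fxyd4 at 105 CPM (next 68.3).

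In UIRI d7, replicate 6 stood apart for Calb1 at 31.6 CPM (next 15.4), Kcne1 at 8.42 CPM (next 5.27), Lcn2 at 262 CPM (next 159) and Chil3 at 4.12 CPM (next 1.22), each toward the nephrectomy level. Replicate 5 stood apart for Slc38a3 at 19.1 CPM (next 11.2), Nqo1 at 20.2 CPM (next 11.6) and Cyp4a10 at 210.0 CPM (next 101.3). Replicate 3 stood apart for Havcr1 at 1141 CPM (next 675) and Il2rb at 13.3 CPM (next 7.88). Replicate 2 stood apart for Fbn1 at 103 CPM (next 77.6), and replicate 4 for Kcnj10 at 17.0 CPM (next 13.9).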

How the results depend on the processing

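The count of 814 genes was 1249 with DESeq2, which called all 814 of the first fit, and the cause was not tested. It was 809 to 819 with other size factors or a 1 CPM filter, 725 with any counted gene and 876 with limma-voom. With the 10 day 7 libraries alone it was 553, with the run of sheet numbers as a covariate 789, and with equal depth 665. Leaving out a library gave 328 (without UIRI+Nx d7 replicate 2) to 898 (without UIRI+Nx d7 replicate 3). Within the first run 176 genes were called and within the second 16, on fewer samples by construction. The difference between cohorts gave 4 genes with DESeq2 and 0 to 1 with a library left out (1 without UIRI d7 replicate 6). Of the 6 library measures 0 to 2 passed with a library left out (2 without UIRI d7 replicate 2). For the first cohort 1486 genes were called with DESeq2.

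No named gene changed sign. Over all alternatives 1855 gene values kept their side of the threshold, 138 lost the call and 6 gained it. Of those lost 35 and 75 came from the first and the second run alone. Of 84 called genes named, 74 kept the call with any 1 library left out. Outside the single runs, the replicate block and left-out libraries, Pck1, Cyp27b1 and Cdca3 lost theirs with limma-voom, Pck1 also with the run as a covariate, Cdca3 at equal depth and Mki67 with the day 7 libraries alone.

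With the replicate number as a block in the 10 day 7 libraries, 510 genes were called beside 553 without it. Kcnj10, Eci1, Adgre1, Mki67, Cdca3 and Hlf lost their call and Lrp2 gained one. The count that fell was 6 in failed repair (9 in the same libraries without the block), and the count that rose was 1 (3) in G2 and mitosis and 2 (4) in p53 targets. Same-numbered libraries correlated by 0.123, 0.0923, 0.168 and 0.219 in their deviations from the group means, and not all exceeded 0.1, so the numbers were not taken to pair samples.

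Low counts limit folds of Cd3d (11 counts with and 253 without nephrectomy), Tbx21 (14 and 495), Klrc1 (40 and 413), Slc22a22 (48 and 528), Cyp2d12 (48 and 795), Serpina6 (58 and 1101), Trac (61 and 406), Defb36 (71 and 846), Il2rb (75 and 620), Hsd3b2 (76 and 864), Muc13 (290 and 25), Marco (262 and 43), Lyve1 (448 and 43), Cyp27b1 (343 and 74) and Chil3 (592 and 89).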

Other observations

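Genes listed as xenobiotic and conjugating enzymes moved in both directions after nephrectomy: of 25 tested 7 rose and 4 fell, with a median of -0.07 on the log2 scale, near that of all genes. The lowest log2 fold change of the list, -3.26, equals that of Dnase1 above. Dnase1 is a nuclease, so the count that fell is not of such enzymes alone. Without UIRI+Nx d7 replicate 2 the count that rose was 4, and without UIRI d7 replicate 6 the count that fell was 7. Fmo1, a flavin monooxygenase, was at 118, 149.8, 102 and 136 CPM in UIRI+Nx d7 replicates 1 to 4 and 49.6 to 79.9 CPM (median 64.8) in UIRI d7, without overlap (log2 fold change 0.98, SE 0.16, edgeR adjusted p = 0.00104).

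In cholesterol synthesis 3 of 25 tested genes rose and none fell, and 1 rose without UIRI+Nx d7 replicate 1. Hsd17b7, an enzyme late in that pathway, was at 40.5, 38.8, 42.8 and 34.7 CPM against 17.9 to 25.7 CPM (median 22.5) (log2 fold change 0.81, SE 0.14, edgeR adjusted p = 0.00224). In the complement system 4 of 19 tested genes fell and none rose, and 2 fell without UIRI+Nx d7 replicate 1, 2 or 4 or UIRI d7 replicate 4 or 6. Among 17 tested fibroblast and pericyte markers 2 rose and 4 fell, and without UIRI+Nx d7 replicate 2 none was called in either direction. Of 21 tested targets of the growth regulator YAP 2 rose and 1 fell (14.3% called, beside 5.24% of all genes tested). Their median log2 fold change was -0.15, and 8 had a positive value. Amotl2, another such target or 1 of those that rose, was at 100.97, 71.5, 62.7 and 68.7 CPM against 29.3 to 57.5 CPM (median 36.8) (log2 fold change 0.96, SE 0.20, edgeR adjusted p = 0.00732).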
